A study of Mus musculus with 16 samples.

Results

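Hepatic inflammatory cells were compared with whole liver in mice given concanavalin A and no stem cells. The comparison rests on 5 of the 16 samples of the series, chosen by their treatment and time labels and by no measured value: the inflammatory cell samples No. 983 and No. 985, and the livers of mice No. 4, 5 and 6. Each was taken 5 h after concanavalin A. All mice were female C57Bl/6, a common inbred strain, and each received 300 µg of concanavalin A. A second set of 5 samples, used only where stated, came from mice that were also given stem cells through the tail vein 3 h after concanavalin A: inflammatory cells No. 987 and 989, and the livers of mice No. 1, 2 and 3. Those stem cells had been isolated from inguinal fat of C57Bl/6 mice and expanded in culture. No mouse without concanavalin A is among the samples used here, so every difference below lies between tissues of mice given it.

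The source label of No. 983 and No. 985 mentions stem cell treatment, whereas their treatment and description labels do not, and they were used here as untreated. How the inflammatory cells were isolated is not given in the sources used here. The labels do not state whether each cell sample came from 1 mouse. The p-values cover only the spread within the 6 groups of all 16 arrays in the fit, which may in part be technical. Both cell samples were hybridised on slide 4 and the livers on slides 1, 2 and 3, so slide and tissue cannot be told apart. In bulk samples, fewer cells of a type and less RNA per cell cannot be told apart either.

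Concanavalin A is a plant lectin that binds sugars on cell surfaces and activates T cells, among them the natural killer T cells that are abundant in mouse liver. The activated lymphocytes release interferon-gamma, tumour necrosis factor, interleukin-4 and other cytokines, recruit leukocytes and kill hepatocytes, in part through Fas ligand. Hepatocytes, sinusoidal endothelial cells and stellate cells answer these cytokines with chemokines, guanylate binding proteins and acute phase proteins. Whole liver holds mostly hepatocyte RNA, and also the leukocytes of the organ.

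Values are log2 signal relative to the 75th percentile of the same array, so that a difference of 1 is a doubling of signal. Differences are inflammatory cells minus liver (n = 2 and 3), and the error after ± is the standard error of a limma fit over all 16 arrays. Of 16267 genes tested, 9913 (60.9%) differed at a Benjamini-Hochberg adjusted p under 0.05: 4762 (29.3%) were higher in the cells and 5151 (31.7%) were higher in liver. By at least 4-fold, 1958 were higher in the cells and 2801 in liver. The 2 groups did not overlap for 12004 genes (73.8%), of which 5761 (35.4%) were higher in the cells and 6243 (38.4%) in liver. Over genes, which are not independent replicates, the correlation was 0.964 between the cell samples, 0.981 to 0.985 between livers and 0.702 to 0.727 between a cell sample and a liver. Counts of list members below are read against these shares, since a random gene was more likely than not to differ between these tissues.

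Of the 12 genes with the largest excess in the cells, several are known from B cells. The proton channel gene Hvcn1 measured 3.09 and 5.75 in No. 983 and 985 and -3.46, -4.01 and -3.31 in livers 4, 5 and 6, a difference of 8.02 ± 0.57 (adjusted p = 6.44e-08, limma). Its probe was well above background in 2 of the 3 livers. Fcmr, the receptor for immunoglobulin M, measured 3.89 and 6.76 against -2.84, -2.23 and -2.91, a 254-fold difference (adjusted p = 1.31e-07). In both genes No. 985 exceeded No. 983, and every liver lay far below both. P2ry10, a lysophospholipid receptor gene of lymphocytes, was not well above background in any liver and was at least 148-fold higher in the cells (adjusted p = 1.11e-10). Such a bound divides the brighter group's mean by that of the dimmer group, after raising any dimmer value to the lowest signal that counted as well above background on its array. Il7r, the interleukin-7 receptor of T cells and B cell precursors, was at least 43.0-fold higher (adjusted p = 7.14e-09). The B cell survival receptor Tnfrsf13c differed by 7.48 ± 0.69 (adjusted p = 7.35e-07).

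The largest excess in liver belonged to hepatocyte genes. Cps1, the mitochondrial enzyme that begins the urea cycle, measured 6.63, 6.59 and 6.58 in the livers and -5.99 and -3.90 in the cells, where 1 of the 2 arrays was well above background (difference -11.54 ± 0.46, adjusted p = 3.66e-10). Its probe lies at chr1:67164100-67164159 on genome build mm8, the build of all probe positions here. Baat, which joins bile acids to amino acids, differed by -9.47 ± 0.25 (adjusted p = 2.29e-11) and the keratin Krt8 by -9.62 ± 0.37 (adjusted p = 3.03e-10). Gulo, the last enzyme of vitamin C synthesis in mice, and Abcg5, a subunit of the sterol exporter of bile, differed by -9.74 ± 0.54 and -9.65 ± 0.29 (adjusted p = 5.74e-09 and 6.10e-11). Each was well above background in 1 of the 2 cell samples. Cldn2, a tight junction gene, was at least 263-fold higher in liver (adjusted p = 2.43e-08), and no cell sample measured it.

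**Figure D1:**
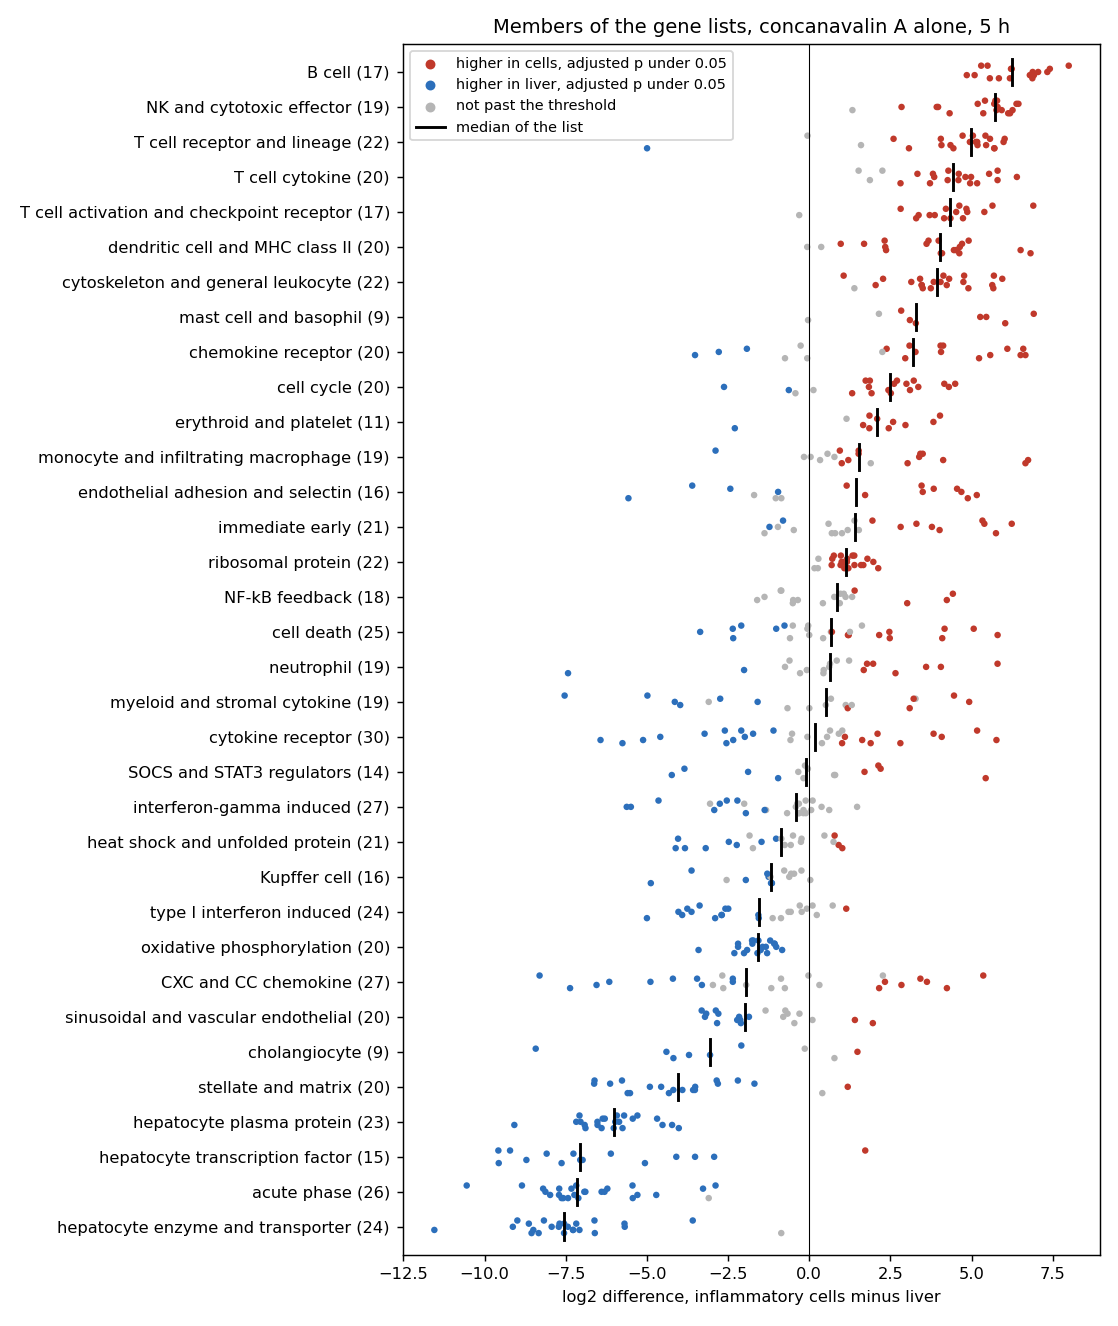
Log2 difference of inflammatory cells minus liver (x axis) for the tested members of the 34 gene lists (rows), each dot 1 gene coloured by its call and each black bar the list's median. Lymphocyte lists lie to the right, with medians of 4.99 for T cells and 6.23 for B cells, and hepatocyte and acute phase lists to the left, with medians from -6.02 to -7.55.

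Pan-leukocyte genes checked the label of the cells. Of 22 general leukocyte genes, 21 were higher in the cells and 0 in liver, with a median difference of 3.94 against -0.04 over all genes tested. Ptprc, which encodes the CD45 phosphatase carried by all leukocytes, measured 6.58 and 6.21 in the cells and 1.12, 1.58 and 1.78 in the livers, a 29.8-fold difference (4.90 ± 0.23, adjusted p = 1.54e-09, probe at chr1:139879923-139879982). The actin regulator Coro1a differed by 5.63 ± 0.24 (adjusted p = 6.84e-10) and the lymphoid transcription factor Ikzf1 by 5.94 ± 0.31 (adjusted p = 3.79e-09). Spi1, which encodes the transcription factor PU.1, was the member not called: it measured -2.71 and -1.27 in the cells and -3.35, -3.36 and -3.42 in the livers (adjusted p = 0.0593), so the groups did not overlap but the cell samples stood apart. Without No. 983 it was called (2.11, adjusted p = 0.0244).

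T cell receptor and lineage genes were higher in the cells in 19 of 22 cases and higher in liver in 1, with a median difference of 4.99 (4.58 with genes below background at their bound). Differences in this list ran down to -4.995, and with the mean of probes 0 members were called higher in liver. Cd3d, a chain of the T cell receptor complex, measured 3.88 and 4.39 in the cells and -1.62, -1.53 and -1.52 in the livers, a 51.7-fold difference (adjusted p = 2.49e-10). Both cell samples lay well above every liver, and the co-receptor chains Cd8a and Cd8b1 behaved alike, at 5.70 ± 0.49 and 5.44 ± 0.35 (adjusted p = 3.84e-07 and 2.25e-08), although a dimmer probe of Cd8b1 gave 0.14. The kinase Lck and the adaptor Lat, which carry the receptor's signal, differed by 4.94 ± 0.30 and 5.42 ± 0.28 (adjusted p = 1.58e-08 and 3.02e-09). The probe for Cd3e was well above background in 1 cell sample and no liver and was not called (adjusted p = 0.247, and 0.00018 without No. 983).

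Natural killer and cytotoxic genes were higher in the cells in 18 of 19 cases (median 5.73, 5.19 at the bounds). Ncr1, the activating receptor NKp46, measured 1.27 and 0.49 in the cells and was not well above background in any liver, giving at least a 36.4-fold difference (adjusted p = 2.02e-09). Klrb1c, which encodes the NK1.1 antigen of C57Bl/6 mice, measured 2.69 and 2.88 against -3.92, -3.39 and -3.12 (6.26 ± 0.26, adjusted p = 5.45e-10). The pore-forming protein Prf1 measured 3.60 and 3.34 against -2.30, -2.31 and -2.17 (5.73 ± 0.26, adjusted p = 8.74e-10), and the cell samples stood clear of the livers in each of these genes. The transcription factor genes Eomes and Tbx21, which direct killer cell programmes, were at least 35.3-fold and 5.41 ± 0.98 log2 units higher (adjusted p = 7.52e-08 and 0.000336).

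All 17 B cell genes tested were higher in the cells, with the highest median of the 34 lists (6.23). Ms4a1, which encodes CD20, measured 4.81 and 5.12 in the cells and -2.50, -2.53 and -2.31 in the livers, a 169.6-fold difference (adjusted p = 2.49e-09). The immunoglobulin heavy chain Ighm measured 7.42 and 8.07 against 1.04, 0.75 and 0.81 (6.88 ± 0.41, adjusted p = 1.17e-08). Pax5, the factor that holds B cell identity, was at least 33.2-fold higher (adjusted p = 3.22e-06). Of the 17, 15 were higher in No. 985 than in No. 983, by a median of 0.65. The groups did not overlap in any of the 17.

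PU.1 is a transcription factor of myeloid and B cells. Motifs were searched on both strands of the 250 bases before each start in the RefSeq promoter table (GRCm38.p6), which matched 12212 of the 16267 genes tested through 15404 windows. The PU.1 letters GAGGAAGT occurred in 72 of 1771 windows of genes at least 4-fold higher in the cells (4.07%), in 48 of 2696 of genes at least 4-fold higher in liver (1.78%) and in 369 of all windows (2.40%). Of the B cell list, 1 of 15 windows held it (6.67%). Other lists ran from 0 of 20 windows (hepatocyte plasma protein) to 2 of 18 (NF-kB feedback, 11.1%), with 1 of 18 for hepatocyte enzymes and transporters (5.56%). A match describes letters in a window and not a bound site. Cd72, an inhibitory co-receptor of B cells, measured 1.83 and 3.36 in the cells and -3.01, -2.16 and -2.31 in the livers (5.09 ± 0.41, adjusted p = 2.31e-07). Part of its window, chr4:43454627-43454720 on the minus strand, is shown with the motif in capitals as its reverse complement, 41 bases before the start.
Cd72: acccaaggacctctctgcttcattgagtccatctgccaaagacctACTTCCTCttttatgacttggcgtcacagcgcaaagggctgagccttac

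Myeloid genes separated from one another. Monocyte and infiltrating macrophage genes were higher in the cells in 12 of 19 cases, with a median of 1.52. Ccr2, the receptor that draws monocytes out of bone marrow, measured 1.03 and 1.47 in the cells, was not well above background in any liver and was at least 47.1-fold higher (adjusted p = 5.85e-08). F13a1, a monocyte transglutaminase, measured 2.15 and 3.62 against -3.45, -4.16 and -3.95 (6.74 ± 0.71, adjusted p = 2.93e-06) and was well above background in 1 of the 3 livers. The lysozyme Lyz2 measured 7.29 and 8.68 against 4.48, 5.27 and 5.12 (3.03 ± 0.37, adjusted p = 1.23e-05). Csf1r and Adgre1, which resident and recruited macrophages share, were not called (0.77 ± 0.32 and 0.56 ± 0.31, adjusted p = 0.054 and 0.132), and in both genes No. 983 lay within the range of the livers. Csf1r was called higher in the cells without No. 983 or liver 5 (adjusted p = 0.000426 and 0.0494). Cd14, the lipopolysaccharide co-receptor, was the member higher in liver, at 2.88 and 3.72 against 6.20, 6.09 and 6.27 (-2.89 ± 1.03, adjusted p = 0.027). Its call was lost without any 1 of the 5 arrays, with adjusted p from 0.0503 to 0.146.

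Kupffer cell genes, which mark the resident macrophages of the sinusoids, were never higher in the cells: 0 of 16 were called there and 8 were higher in liver, with a median of -1.17. Without 1 array the median ran from -1.77 to -0.43 and the count higher in liver from 5 to 12. Nr1h3, the liver X receptor gene, measured -0.67 and -0.13 in the cells and 3.12, 3.49 and 3.06 in the livers (-3.63 ± 0.21, adjusted p = 8.79e-09), although hepatocytes express it too. The iron exporter Slc40a1 measured -0.05 and 1.08 against 1.87, 2.99 and 2.55 (-1.95 ± 0.38, adjusted p = 0.000631), and the scavenger receptor Marco 2.58 and 2.55 against 3.52, 4.21 and 3.72 (-1.25 ± 0.37, adjusted p = 0.00946). Clec4f, a lectin receptor restricted to Kupffer cells in mouse, measured 2.04 and 3.53 against 3.84, 4.18 and 3.87 (-1.18 ± 0.34, adjusted p = 0.00814), so No. 985 came close to the livers. Without No. 983 it was no longer called (-0.43, adjusted p = 0.157), nor with quantile normalization, which also ended the call of Marco (-0.87, adjusted p = 0.0689). The complement genes C1qa and C1qb were not called (-0.62 ± 0.29 and -0.47 ± 0.33, adjusted p = 0.0783 and 0.234), although C1qa was called higher in liver without No. 985 (adjusted p = 0.00124). In 14 of the 16 genes No. 985 exceeded No. 983, by a median of 1.14.

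Of 19 neutrophil genes, 7 were higher in the cells and 2 in liver, with a median of 0.64. The shares called over all genes were 29.3% and 31.7%. Without overlap between the groups, 12 of the 19 were higher in the cells and 2 in liver, against 35.4% and 38.4% of all genes. The primary granule genes Mpo and Elane were higher in the cells: Mpo measured 4.03 and 3.63 against -1.37, -2.36 and -2.16 (5.80 ± 0.51, adjusted p = 4.99e-07), and Elane was at least 3.81-fold higher (adjusted p = 3.16e-06), which was not called with normexp background correction (0.95, adjusted p = 0.0734). Camp, a secondary granule peptide, differed by 2.65 ± 0.49 (adjusted p = 0.000377). Cxcr2 and Fpr1, receptor genes of mature circulating neutrophils, were not called, and granule and receptor genes were not tested against each other. The chemokine receptor Cxcr2 measured -1.72 and -2.31 against -1.75, -0.88 and -1.17 (adjusted p = 0.387), and the formyl peptide receptor Fpr1 differed by -0.61 ± 0.42 (adjusted p = 0.225). The groups overlapped in both genes, and Fpr1 was called higher in liver without liver 4 (adjusted p = 0.0183). The members higher in liver were Stfa2l1, a stefin (-2.01 ± 0.68, adjusted p = 0.0211), and Lcn2, an iron-scavenging protein that hepatocytes also make in the acute phase response, at 0.50 and -0.73 against 7.80, 7.01 and 7.14 (-7.43 ± 1.96, adjusted p = 0.00508). The call of Stfa2l1 was lost without No. 985. The count of neutrophil genes higher in the cells fell to 4 without No. 983, liver 4 or liver 6.

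Antigen presentation genes were higher in the cells in 18 of 20 cases, with a median of 4.02 and 0 higher in liver. H2-Ab1, a chain of major histocompatibility complex class II, measured 7.39 and 8.53 against 3.37, 3.37 and 3.24 (4.63 ± 0.28, adjusted p = 1.17e-08), and Cd74, its invariant chain, 7.90 and 8.78 against 4.04, 3.80 and 3.64 (4.51 ± 0.25, adjusted p = 5.82e-09). B cells, dendritic cells and activated macrophages share these genes. Among genes of dendritic subsets, Siglech, a marker of plasmacytoid dendritic cells, was at least 27.0-fold higher (adjusted p = 2.08e-07). The migration receptor Ccr7 measured 3.05 and 3.14 against -1.85, -4.65 and -3.73, and was well above background in 2 of the 3 livers (6.51 ± 0.83, adjusted p = 1.63e-05). The livers scattered in Ccr7, but all lay below both cell samples.

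Mast cell and basophil genes were higher in the cells in 7 of 9 cases (median 3.28, 2.95 at the bounds), and 7 of the 9 were well above background in no liver. A gene can enter the test through the cell arrays alone. Among genes above background on all 5 arrays, 0 members of this list were called and the median was -0.038. The count therefore rests on genes that were not measured on every array. Mcpt8, a protease of basophils, measured 1.40 and 1.53 in the cells and was at least 54.9-fold higher (adjusted p = 6.31e-09). Cpa3, a carboxypeptidase of mast cells and basophils, was at least 15.9-fold higher (adjusted p = 4.97e-06). Erythroid and platelet genes were higher in the cells in 9 of 11 cases, with a median of 2.09. The haemoglobin chain Hba-a1, which has a near-identical neighbouring copy that its probe may also read, measured 10.06 and 10.36 against 7.90, 7.78 and 7.61 (2.45 ± 0.25, adjusted p = 2.5e-06), and the platelet factor Pf4 4.18 and 4.70 against 1.63, 1.54 and 1.27 (2.96 ± 0.31, adjusted p = 2.86e-06). The exception was the erythroid transcription factor Klf1, at -2.29 ± 0.32 (adjusted p = 3.75e-05), well above background in 1 of the 2 cell samples and all 3 livers.

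Hepatocyte genes were nearly uniformly higher in liver. All 23 plasma protein genes and 23 of 24 enzymes and transporters were called, with medians of -6.02 and -7.55. Alb, the most abundant plasma protein, measured 10.52, 10.08 and 10.09 in the livers and 5.32 and 7.11 in the cells, a 16.2-fold difference (-4.02 ± 0.46, adjusted p = 6.64e-06). Transferrin, Trf, differed by -6.52 ± 0.20 (adjusted p = 6.10e-11), and Cyp2e1, a cytochrome of the central lobule that oxidises ethanol and paracetamol, measured 7.58, 7.59 and 7.20 against -2.19 and 0.43 (-8.33 ± 0.69, adjusted p = 2.81e-07). For Alb and Cyp2e1 the livers lay close together, and both cell samples lay below them and apart from each other. No. 985 held more signal than No. 983 in 21 of the 23 plasma protein genes, by a median of 1.28, and in 22 of the 24 enzyme and transporter genes, by a median of 1.64. The part of hepatocyte RNA in the results on the cells was not tested. Gc, the vitamin D binding protein, measured 8.81, 8.97 and 8.75 in the livers and 2.14 and 3.70 in the cells (-5.92 ± 0.40, adjusted p = 3.91e-08). Cp, the copper carrier ceruloplasmin, measured 8.63, 8.50 and 8.55 against 1.84 and 1.42 (-6.93 ± 0.39, adjusted p = 6.77e-09), with both cell samples far below the livers. The rate-limiting enzyme of bile acid synthesis, Cyp7a1, was at least 7.31-fold higher in liver (adjusted p = 0.000803), a call lost with normexp background correction (-0.55, adjusted p = 0.587).

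Of 15 transcription factors of the hepatocyte programme, 14 were higher in liver (median -7.05, -6.11 at the bounds). Onecut1 and Foxa3, which act early in liver development, were at least 202-fold and 143-fold higher (adjusted p = 4.13e-10 and 6.55e-11). Hnf4a measured 4.33, 3.56 and 3.70 against -5.82 and -3.86 (-8.71 ± 0.46, adjusted p = 3.71e-09). It was well above background in 1 of the 2 cell samples, whereas the probe for Alb was well above background in both. The exception was Esrra, a nuclear receptor of mitochondrial genes found in many cell types, which was higher in the cells at 1.72 ± 0.37 (adjusted p = 0.00115).

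Genes of other resident cells of the organ were also mostly higher in liver. Of 20 stellate cell and matrix genes, 18 were higher in liver, with a median of -4.05. Col4a1, a basement membrane collagen, measured 3.33, 3.35 and 3.29 against -3.61 and -2.99 (-6.62 ± 0.41, adjusted p = 1.83e-08), and the proteoglycan Dcn 5.97, 6.27 and 5.92 against -0.21 and 0.78 (-5.77 ± 0.30, adjusted p = 3.82e-09). Both cell samples lay far below the livers. Reln, a glycoprotein of stellate cells, differed by -4.91 ± 0.23 (adjusted p = 1.18e-09), and Rgs5, a pericyte gene, was at least 29.5-fold higher in liver (adjusted p = 1.33e-09). The stellate list's exception was Hgf, the hepatocyte growth factor, at -0.68 and -2.29 in the cells against -3.11, -2.11 and -2.78 (1.18 ± 0.43, adjusted p = 0.0295). The groups of Hgf overlapped, and its call was lost without No. 983 (0.38, adjusted p = 0.461), liver 4 (0.96, adjusted p = 0.0972) or liver 6 (1.13, adjusted p = 0.0685).

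Sinusoidal and vascular endothelial genes were higher in liver in 11 of 20 cases and higher in the cells in 2, with a median of -1.98. Stab2, a scavenger receptor of sinusoidal endothelium, measured 2.35, 1.98 and 1.91 against -1.95 and -0.51 (-3.31 ± 0.35, adjusted p = 2.85e-06), and Lyve1, a hyaluronan receptor, 0.32, -0.13 and 0.15 against -2.77 and -2.68 (-2.84 ± 0.34, adjusted p = 9.03e-06). Kdr and Pecam1 were not called (-0.46 ± 0.37 and 0.10 ± 0.27, adjusted p = 0.298 and 0.775), and the samples of both tissues overlapped. The 2 members higher in the cells were Fcgr2b, an Fc receptor that B cells and macrophages also carry (1.96 ± 0.28, adjusted p = 5.36e-05), and Vwf, a clotting factor of endothelium and platelets (1.40 ± 0.40, adjusted p = 0.00799). Vwf lost its call without No. 985. Cholangiocyte genes were higher in liver in 6 of 9 cases (median -3.06, -2.15 at the bounds), led by Sox9, a transcription factor of bile duct cells, at least 94.2-fold higher (adjusted p = 2.14e-06). The exception, the adhesion molecule Epcam, was higher in the cells at 1.48 ± 0.47 (adjusted p = 0.0155) and lost its call without No. 983 or liver 4.

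**Figure D2:**
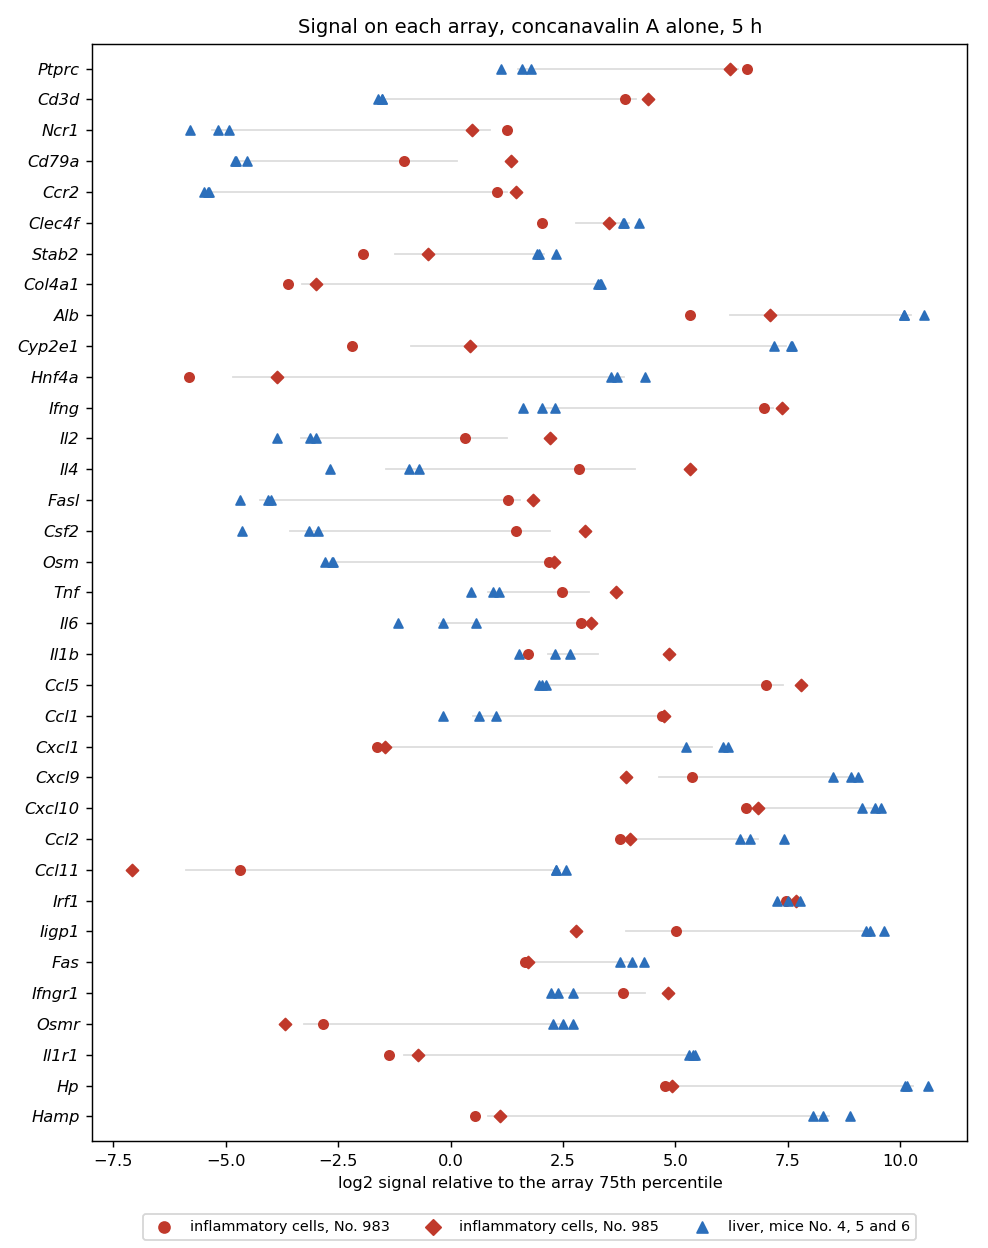
Log2 signal, scaled to each array's 75th percentile (x axis), of 35 genes (rows) on each of the 5 arrays, with a red circle for inflammatory cells No. 983, a red diamond for No. 985 and blue triangles for the 3 livers. Ptprc, Cd3d, Ifng and Osm stand to the right in the cells, Alb, Osmr, Cxcl1 and Hp to the right in liver, and for Irf1 the symbols of both tissues overlap.

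Of 20 T cell cytokine genes, 17 were higher in the inflammatory cells and 0 in liver, with a median of 4.44 (3.83 at the bounds). Ifng, which encodes interferon-gamma, measured 6.96 and 7.37 in the cells and 1.62, 2.04 and 2.32 in the livers, a 36.0-fold difference (5.17 ± 0.83, adjusted p = 0.000127, probe at chr10:117848778-117848837). The T cell growth factor Il2 measured 0.33 and 2.21 against -3.87, -3.12 and -2.98 (4.59 ± 0.94, adjusted p = 0.000873), and Il4, the type 2 cytokine that natural killer T cells release early, 2.86 and 5.34 against -2.67, -0.71 and -0.93 (5.54 ± 1.15, adjusted p = 0.000968). For Il2 and Il4 No. 985 was higher than No. 983, yet the lower cell sample stayed above every liver. Csf2, the granulocyte-macrophage growth factor, measured 1.45 and 2.99 against -4.65, -3.14 and -2.95 (5.80 ± 0.97, adjusted p = 0.000187), with 2 of the 3 livers well above background. Il3, a growth factor of basophils and mast cells, measured 0.34 and 0.44, was not well above background in any liver and was at least 25.9-fold higher (adjusted p = 4.93e-09).

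Il17a, Il17f, Il21 and Il22 were not well above background in any liver and were at least 7.44-, 5.79-, 5.68- and 2.60-fold higher in the cells (adjusted p = 1.86e-06, 9.01e-05, 8.09e-06 and 0.000468). With normexp background correction Il17f, Il21 and Il22 were not called (0.96, 1.09 and 0.70, adjusted p = 0.0896, 0.0938 and 0.229). Il10, which restrains inflammation, measured -1.21 and -1.47 against -3.89, -4.38 and -4.18 (2.81 ± 0.39, adjusted p = 3.56e-05), with 2 of the 3 livers well above background. Among members of the tumour necrosis factor family, Lta measured 2.53 and 1.94 against -3.29, -2.70 and -2.24 (4.98 ± 0.67, adjusted p = 2.83e-05). Fasl, the death ligand, measured 1.27 and 1.84 against -4.67, -4.00 and -4.06 (5.80 ± 0.41, adjusted p = 5.78e-08). Tnf itself measured 2.47 and 3.69 against 0.46, 1.07 and 0.96 and did not overlap, but it missed the threshold (2.25 ± 0.94, adjusted p = 0.0538). When only the 10 arrays at 5 h were fitted, without the livers at 2 h, its adjusted p was 0.000461. Il5 and Il13 overlapped between the groups and were not called (adjusted p = 0.0767 and 0.0706). Il5 was called higher in the cells without liver 6 (adjusted p = 0.00438), and Il13 without No. 983 or liver 4 (adjusted p = 0.00171 and 0.0154).

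Activation and checkpoint genes were higher in the cells in 16 of 17 cases (median 4.35). Cd69, the early activation antigen, measured 6.00 and 5.94 against -1.62, -0.51 and -0.65, a 119-fold difference (adjusted p = 4.09e-08). Nr4a1, which is switched on by antigen receptor signals, measured 7.55 and 8.29 against 2.83, 2.28 and 2.48 (5.39 ± 0.40, adjusted p = 9.91e-08). Il2ra, the high-affinity chain of the interleukin-2 receptor, measured 1.97 and 0.57 against -3.02, -4.02 and -3.34 (4.73 ± 0.73, adjusted p = 9.27e-05). The checkpoint receptors Pdcd1, Havcr2 and Lag3 differed in the same direction: Pdcd1 by 4.86 ± 0.82, Havcr2 by 4.62 ± 0.54 and Lag3 by at least 11.3-fold (adjusted p = 0.000185, 7.93e-06 and 3.05e-05). Havcr2 was well above background in 2 of the 3 livers. In each of these genes both cell samples lay above all livers.

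NFAT is the transcription factor that calcium signals of the T cell receptor bring into the nucleus, and its core letters TGGAAA were searched in the same windows. They occurred in 11 of 20 windows of the T cell cytokine list (55.0%) and in 15.8% of all windows. They occurred in 16.8% of windows of genes at least 4-fold higher in the cells and in 16.9% of those higher in liver. Other lists were high too, with 8 of 20 windows of hepatocyte plasma protein genes (40.0%). Windows of 3 cytokine genes that were higher in the cells are shown, with each match in capitals, as TGGAAA or its reverse complement TTTCCA. Il2 (chr3:37125955-37126046, minus strand) has 1 match, 41 bases before the start. Il4 (chr11:53618692-53618894, minus strand) has 2, at 178 and 71 bases, and Il21 (chr3:37232660-37232800, minus strand) has 2, at 113 and 68 bases.
Il2: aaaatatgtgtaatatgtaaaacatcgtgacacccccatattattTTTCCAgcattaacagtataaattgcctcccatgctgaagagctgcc
Il4: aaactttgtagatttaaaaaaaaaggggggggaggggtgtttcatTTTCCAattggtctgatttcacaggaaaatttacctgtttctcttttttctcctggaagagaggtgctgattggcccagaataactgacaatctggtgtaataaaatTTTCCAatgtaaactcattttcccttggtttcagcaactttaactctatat
Il21: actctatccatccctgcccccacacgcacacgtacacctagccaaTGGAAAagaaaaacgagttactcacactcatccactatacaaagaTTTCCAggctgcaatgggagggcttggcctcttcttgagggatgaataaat

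Of 19 cytokines of myeloid and stromal cells, 5 were higher in the cells and 6 in liver, shares of 26.3% and 31.6% near the 29.3% and 31.7% of all genes, with a median of 0.51. Osm, oncostatin M, a leukocyte cytokine of the interleukin-6 family that drives acute phase genes, measured 2.20 and 2.29 in the cells and -2.78, -2.64 and -2.61 in the livers, a 30.3-fold difference (4.92 ± 0.60, adjusted p = 1.15e-05). Il12a, a subunit of interleukin-12, differed by 4.46 ± 0.68 (adjusted p = 7.96e-05) and Tgfb1, transforming growth factor beta, by 3.21 ± 0.22 (adjusted p = 4.45e-08). Il6 measured 2.90 and 3.13 against -1.16, 0.57 and -0.17 without overlap, but was not called (3.27 ± 1.36, adjusted p = 0.0521, and 0.000211 with the 10 arrays at 5 h). Il33, an alarm cytokine stored in nuclei of stromal cells, was the most liver-biased of these genes: it measured -0.14, 1.39 and 0.84 in the livers and was at least 45.2-fold higher there (adjusted p = 4.02e-08). Vegfa, the endothelial growth factor, measured 5.09, 4.36 and 4.56 against 0.18 and -0.81 (-4.98 ± 0.35, adjusted p = 5.49e-08). Csf3, the neutrophil growth factor, and Nos2, which encodes the nitric oxide synthase of activated cells, were at least 4.73-fold and 5.38-fold higher in liver (adjusted p = 6.24e-05 and 3.06e-05), and neither cell sample measured them. Csf3 lost its call with normexp (-0.93, adjusted p = 0.112). Il18 and Il27 were the remaining members higher in liver (-1.59 ± 0.26 and -2.74 ± 0.29, adjusted p = 0.000155 and 3.21e-06).

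Of 27 chemokines, 10 were higher in liver (37.0%) and 7 in the cells (25.9%), near the shares of all genes (31.7% and 29.3%), with a median of -1.94. Cxcl1, a neutrophil attractant, measured 5.23, 6.17 and 6.07 in the livers and -1.62 and -1.46 in the cells, a 165-fold difference (-7.37 ± 1.76, adjusted p = 0.00269, probe at chr5:91968019-91968078). The eosinophil attractant Ccl11 measured 2.56, 2.36 and 2.36, was not well above background in either cell sample and was at least 149.6-fold higher in liver (adjusted p = 0.00106). Cxcl12, which retains leukocytes through Cxcr4, measured 4.11, 4.68 and 4.11 against -3.38 and -1.11 (-6.55 ± 0.51, adjusted p = 1.52e-07), and Cxcl5 was at least 14.3-fold higher in liver (adjusted p = 4.8e-05). The livers lay above both cell samples in each of these genes.

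On the side of the cells, Ccl5, a product of killer and memory T cells, measured 7.01 and 7.80 against 1.98, 2.13 and 2.03, a 41.0-fold difference (5.36 ± 0.22, adjusted p = 5.06e-10). Ccl3 measured 5.22 and 5.74 against 1.74, 2.07 and 1.75 (3.62 ± 0.77, adjusted p = 0.00117), and Ccl4 8.10 and 7.27 against 3.95, 4.62 and 4.22 (3.42 ± 1.04, adjusted p = 0.0119). Both attract T cells and monocytes. Ccl1, a T cell attractant, measured 4.71 and 4.74 against -0.18, 1.01 and 0.64 (4.24 ± 1.45, adjusted p = 0.0217). The call of Ccl4 was lost without No. 983 (3.01, adjusted p = 0.0834), and that of Ccl1 without No. 983, No. 985 or liver 4 (adjusted p = 0.0816, 0.0832 and 0.0588). Without No. 983, 4 chemokines in place of 7 were higher in the cells.

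The interferon-induced ligands of Cxcr3 were brighter in liver without overlap. Cxcl9 measured 9.07, 8.90 and 8.51 in the livers and 5.36 and 3.90 in the cells (-4.20 ± 1.58, adjusted p = 0.0345), and its call was lost without any 1 of the 5 arrays (adjusted p from 0.0566 to 0.18). Cxcl10 measured 9.43, 9.57 and 9.15 against 6.58 and 6.83, and Cxcl11 3.99, 4.31 and 3.76 against 1.99 and 0.76. Neither was called (adjusted p = 0.245 and 0.2). With the 10 arrays at 5 h their adjusted p was 0.000153 and 0.000146. The monocyte attractant Ccl2 was not called either, at 6.45, 7.42 and 6.67 against 3.77 and 3.99 (-2.97 ± 1.56, adjusted p = 0.118, and 3.11e-05 with the 10 arrays). The receptor Cxcr3, carried by activated T and killer cells, measured 1.75 and 2.46 in the cells against -3.48, -3.50 and -3.41 in the livers (5.57 ± 0.31, adjusted p = 6.38e-09).

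Chemokine receptors lay mostly on the cells, 13 of 20, with a median of 3.18 (2.61 at the bounds). Cxcr5 and Ccr6, which guide B cells, differed by 6.59 ± 0.53 and 5.23 ± 0.47 (adjusted p = 2.04e-07 and 5.49e-07), Ccr9, a gut homing receptor, by 6.10 ± 0.45 (adjusted p = 8.6e-08), and Cxcr6, a receptor of liver-resident lymphocytes, by 4.04 ± 0.33 (adjusted p = 2.75e-07). The 3 receptors higher in liver were Ackr1, Ackr2 and Ackr3, which bind chemokines without the usual signal and are carried by vessel and stromal cells. They differed by -3.52 ± 0.26, -2.79 ± 0.33 and -1.92 ± 0.47 (adjusted p = 8.55e-08, 9.64e-06 and 0.00296). Ackr3 was well above background in 1 of the 2 cell samples, and its call was lost without No. 983.

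NF-kB is a transcription factor that tumour necrosis factor and interleukin-1 activate in many cell types, and its motif was searched in the same windows as GGGA, any 1 base and TTTCC. It occurred in 2 of 18 chemokine windows (11.1%), in 0.409% of all windows, in 0.339% of windows of genes at least 4-fold higher in the cells and in 0.482% of those higher in liver. The TTTCC at its end can overlap the reverse complement of the NFAT motif. Windows of NF-kB feedback genes held the motif in 2 of 18 cases (11.1%). Those of interferon-gamma genes held it in 2 of 23 (8.70%) and those of T cell cytokines in 1 of 20 (5.00%). The other lists searched held 0. Cxcl2, which was not called between the tissues (0.31), has GGGAATTTCC 87 bases before its start. A liver-biased and a cell-biased gene are shown with the match in capitals. Cxcl1 (chr5:90891129-90891228, plus strand) has it 61 bases before the start. Ltb (chr17:35194375-35194474, plus strand), which encodes lymphotoxin beta, has the reverse complement 77 bases before the start. Ltb measured 4.53 and 5.10 in the cells and 1.18, 0.60 and 1.25 in the livers (3.81 ± 0.39, adjusted p = 2.22e-06).
Cxcl1: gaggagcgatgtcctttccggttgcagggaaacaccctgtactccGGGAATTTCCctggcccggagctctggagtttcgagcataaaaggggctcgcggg
Ltb: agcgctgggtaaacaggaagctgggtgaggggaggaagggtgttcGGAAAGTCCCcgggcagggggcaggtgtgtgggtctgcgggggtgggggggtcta

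Of 30 cytokine receptors, 10 were higher in the cells (33.3%) and 12 in liver (40.0%), near the 29.3% and 31.7% of all genes, with a median of 0.17. Osmr, the oncostatin M receptor, measured 2.28, 2.50 and 2.71 in the livers and -2.84 and -3.67 in the cells, a 53.9-fold difference (-5.75 ± 0.62, adjusted p = 3.42e-06). Il1r1, the signalling receptor of interleukin-1, measured 5.31, 5.40 and 5.45 against -1.36 and -0.73 (-6.43 ± 0.51, adjusted p = 1.74e-07), and Lifr, whose product pairs with gp130, 4.66, 5.22 and 4.58 against -0.20 and -0.39 (-5.12 ± 0.28, adjusted p = 5.93e-09). The other 4 probes of Lifr gave -1.93, -1.16, -1.03 and 0.10. Il6ra, the interleukin-6 receptor, was not called (-0.53, adjusted p = 0.337). Receptors of lymphocyte growth factors went the other way: Il2rb differed by 5.76 ± 0.25, Il21r by 5.17 ± 0.39 and Il2rg, the common gamma chain, by 4.08 ± 0.42 (adjusted p = 7.51e-10, 1.13e-07 and 2.4e-06).

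Receptors of the tumour necrosis factor family did not share a direction. Fas, the receptor of Fas ligand, measured 3.77, 4.30 and 4.03 in the livers and 1.65 and 1.73 in the cells, a 5.07-fold difference (-2.34 ± 0.59, adjusted p = 0.0038), but its dimmer probe gave -0.07. Tnfrsf1a, the widespread receptor of tumour necrosis factor, measured 4.96, 4.85 and 4.82 against 2.21 and 3.36 (-2.09 ± 0.28, adjusted p = 2.33e-05), and Ltbr, the lymphotoxin beta receptor, 4.36, 4.22 and 3.99 against 1.18 and 2.10 (-2.55 ± 0.27, adjusted p = 2.64e-06). The groups did not overlap in these 3 genes. Tnfrsf1b was higher in the cells (1.01 ± 0.25, adjusted p = 0.00374), a call lost without No. 985 (0.73, adjusted p = 0.0531), and Tnfrsf10b was not called (-0.06, adjusted p = 0.938). The interferon-gamma receptor differed by chain: Ifngr1 was higher in the cells, at 3.83 and 4.84 against 2.71, 2.39 and 2.24 (1.89 ± 0.27, adjusted p = 4.62e-05), while Ifngr2 was not called (-0.58 ± 0.31, adjusted p = 0.126, and 0.0448 with the 10 arrays at 5 h).

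Of 37 pairs of a ligand and its receptor, both members were called in 17. Of all genes, 29.3% were called higher in the cells and 31.7% in liver, so many random pairs would also have both members called. The share among random pairs was not computed, and the pair counts are not read as exceeding it. In 6 pairs both were higher in the cells: Ifng with Ifngr1, Il10 with Il10ra, Il4 with Il4ra, Il2 with Il2ra, Csf2 with Csf2ra and Ccl3 with Ccr1. In 6 pairs the ligand was higher in the cells and the receptor in liver: Lta with Tnfrsf1a, Ltb with Ltbr, Fasl with Fas, Osm with Osmr, Il17a with Il17ra and Hgf with Met. In 5 pairs the ligand was higher in liver and the receptor in the cells: Il18 with Il18r1, Cxcl9 with Cxcr3, Cxcl12 with Cxcr4, Cx3cl1 with Cx3cr1 and the adhesion ligand Vcam1 with Itga4. No pair of the 37 had both members called higher in liver. Calls lost when 1 array was left out were those of Il17ra (without No. 983, adjusted p = 0.0721), Vcam1 (without No. 985, adjusted p = 0.0698), Hgf and Cxcl9, which touch 4 of these pairs. With normexp, Ccr1 (0.55, adjusted p = 0.399), Cx3cr1 (1.01, adjusted p = 0.0742) and Hgf lost theirs, and the pair of Fasl with Fas rests on the brighter probe of Fas. Pairs were described by call and not tested.

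**Figure D3:**
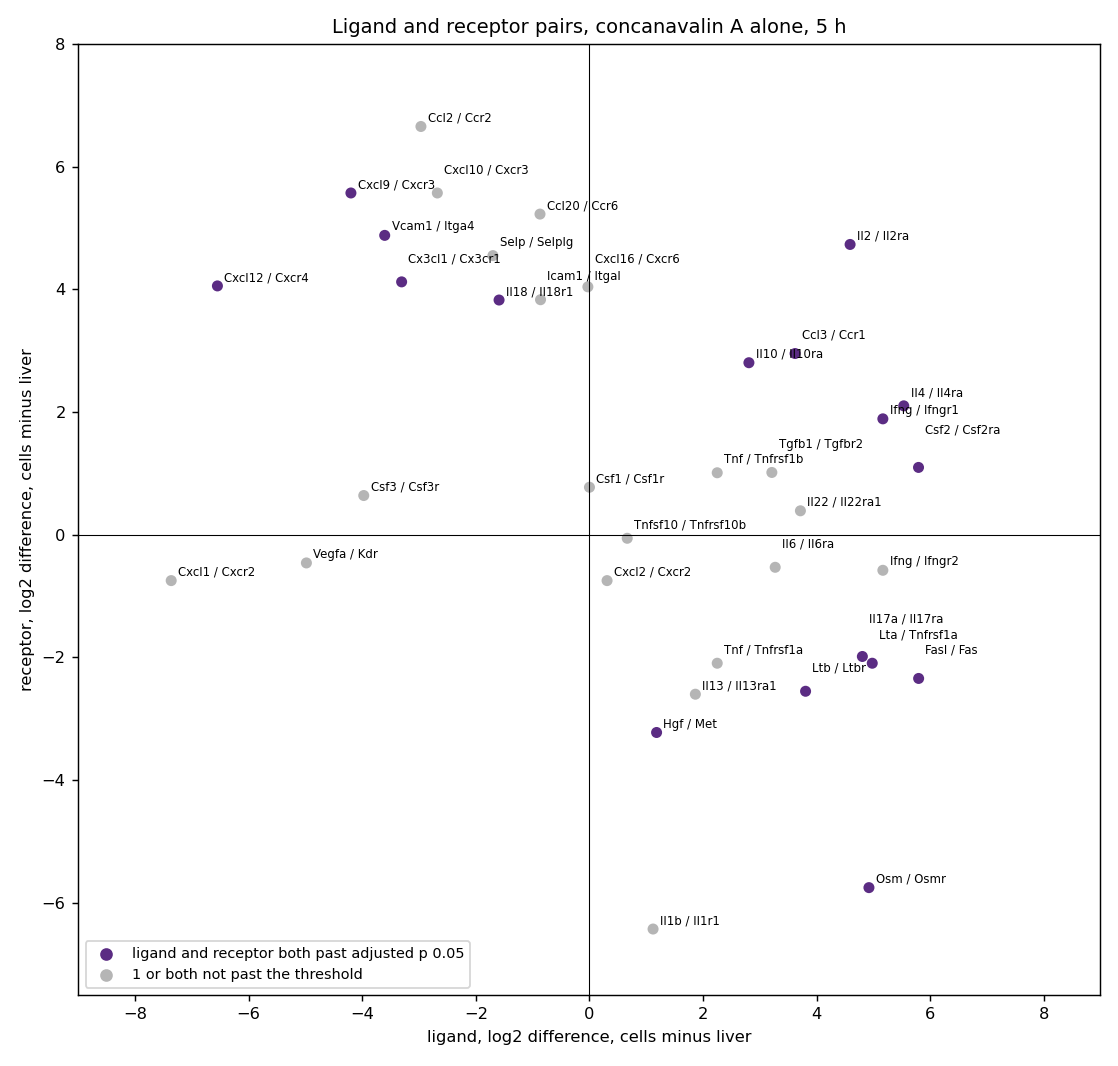
Log2 difference of inflammatory cells minus liver of the ligand (x axis) and of its receptor (y axis) for 37 pairs, with purple points where both genes were called and grey points otherwise. Osm with Osmr and Fasl with Fas lie at the lower right, with the ligand higher in the cells and the receptor in liver, and Cxcl12 with Cxcr4 and Cx3cl1 with Cx3cr1 at the upper left.

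Of 27 genes that interferon-gamma induces, 0 were called higher in the cells and 9 in liver, with a median of -0.42 (-1.09 to -0.24 without 1 array). The 9 of 27 is near the 31.7% of all genes that were higher in liver. Iigp1, an immunity-related GTPase, measured 9.64, 9.33 and 9.24 in the livers and 5.01 and 2.80 in the cells (-5.49 ± 0.64, adjusted p = 7.7e-06). Irgm2, of the same family, measured 6.07, 6.38 and 6.28 against 3.41 and 3.23 (-2.93 ± 0.55, adjusted p = 0.000457), and Igtp 8.11, 7.79 and 7.79 against 5.78 and 5.58 (-2.21 ± 0.57, adjusted p = 0.00458). The immunoproteasome subunit Psmb10 differed by -1.37 ± 0.28 (adjusted p = 0.000816, and 0.0518 with quantile normalization). Irf1, a transcription factor at the top of the response, was not called: it measured 7.45 and 7.69 in the cells and 7.78, 7.51 and 7.25 in the livers (0.06 ± 1.23, adjusted p = 0.972). The 95% interval of the difference for Irf1 ran from -2.61 to 2.72, and the groups overlapped. Without No. 985, 4 of the 27 were called higher in liver. After quantile normalization 4 members were higher in the cells.

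Of 24 genes of the type I interferon response, 13 were higher in liver and 1 in the cells, with a median of -1.56. Ifit1, which binds viral RNA, measured 3.94, 2.88 and 3.66 in the livers and -1.31 and -1.69 in the cells (-5.00 ± 0.62, adjusted p = 1.3e-05). Isg15, a ubiquitin-like protein, measured 6.19, 5.30 and 5.38 against 2.49 and 1.25 (-3.76 ± 0.47, adjusted p = 1.53e-05), and Ifih1, a sensor of double-stranded RNA, 2.69, 2.64 and 2.85 against 0.21 and 0.26 (-2.49 ± 0.22, adjusted p = 4.74e-07). Irf7, a transcription factor of this response, differed by -1.56 ± 0.27 (adjusted p = 0.000261). All livers lay above both cell samples in these 4 genes. The exception was Oas2, at 1.14 ± 0.47 (adjusted p = 0.0499), which lost its call without No. 983 or any 1 of the livers. Without No. 985, 2 members were called higher in the cells.

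The interferon-stimulated response element, which interferon regulatory factors bind, was searched as GAAA, any 2 bases and GAAA again. It occurred in 8 of 24 windows of type I interferon genes (33.3%) and in 10 of 23 windows of interferon-gamma genes (43.5%), against 2.82% of all windows. Genes at least 4-fold higher in the cells and in liver held it in 2.88% and 2.89% of windows. Its GAAA can overlap the TGGAAA searched for NFAT. Windows of 3 genes that were higher in liver are shown with the matches in capitals, since they carry the motif once, paired or as overlapping copies. Ifit1 (chr19:34640740-34640858, plus strand) has 2 reverse complement matches, 94 and 75 bases before the start. Isg15 (chr4:156200830-156200941, minus strand) has 3 overlapping matches, from 68 to 56 bases before the start, and Irgm2 (chr11:58214868-58214967, plus strand) has 1, at 54 bases.
Ifit1: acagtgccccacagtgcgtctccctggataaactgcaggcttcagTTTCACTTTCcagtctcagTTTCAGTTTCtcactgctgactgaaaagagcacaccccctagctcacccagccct
Isg15: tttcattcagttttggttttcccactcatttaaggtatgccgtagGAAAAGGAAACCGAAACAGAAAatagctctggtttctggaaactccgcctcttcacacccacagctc
Irgm2: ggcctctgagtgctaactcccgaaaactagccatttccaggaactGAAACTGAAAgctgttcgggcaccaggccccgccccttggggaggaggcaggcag

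Acute phase genes, which hepatocytes turn on under interleukin-6, interleukin-1 and oncostatin M, were higher in liver in 25 of 26 cases, with a median of -7.14, and in all 26 the groups did not overlap. Steap4, a metalloreductase, measured 6.17, 6.59 and 6.68 in the livers and -3.03 and -5.11 in the cells, where 1 of 2 arrays was well above background (-10.55 ± 1.29, adjusted p = 1.19e-05). The iron hormone Hamp measured 8.89, 8.27 and 8.05 against 0.55 and 1.11 (-7.57 ± 0.43, adjusted p = 7.4e-09), and haptoglobin, Hp, 10.61, 10.15 and 10.10 against 4.77 and 4.92 (-5.44 ± 0.39, adjusted p = 6.47e-08). Saa2, a serum amyloid with a near-identical family copy that its probe may also read, measured 10.64, 10.18 and 10.21 against 4.37 and 0.36 (-7.98 ± 1.63, adjusted p = 0.000883). In Saa2 No. 983 was the higher cell sample (No. 985 minus No. 983 was -4.01), the opposite order to Alb. The member not called was the interleukin-1 antagonist Il1rn, at 4.64, 5.04 and 4.26 against 1.93 and 1.17 (-3.10 ± 1.48, adjusted p = 0.0867, and 1.65e-05 with the 10 arrays at 5 h).

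Of 18 NF-kB feedback genes, 4 were higher in the cells (22.2%) and 0 in liver, with a median of 0.86. Of all genes, 29.3% and 31.7% were called in these directions. The groups did not overlap in 11 of the 18 that were higher in the cells and in 4 higher in liver. Over all genes these shares were 35.4% and 38.4%. Traf1, an adaptor of tumour necrosis factor receptors in activated lymphocytes, measured 3.95 and 4.45 against -0.14, -0.39 and -0.13 (4.42 ± 0.54, adjusted p = 1.12e-05), and Rel, the lymphoid subunit of NF-kB, was at least 11.4-fold higher in the cells (adjusted p = 0.000247). Tnip3, well above background in 1 of the 3 livers, and Nfkb1 were the others (3.01 ± 0.72 and 1.40 ± 0.55, adjusted p = 0.00272 and 0.0417), and Nfkb1 lost its call without any 1 of the 5 arrays. The inhibitor Nfkbia measured 7.51 and 7.65 against 6.66, 6.73 and 6.53 (0.94 ± 0.53, adjusted p = 0.143, and 0.00833 with the 10 arrays at 5 h). With the 10 arrays at 5 h, 10 of the 18 were higher in the cells and 2 in liver.

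Of 14 regulators of cytokine signalling through STAT proteins, 4 were higher in the cells and 4 in liver, with a median of -0.09. Each share, 28.6%, is near the 29.3% and 31.7% of all genes. Stat4, which relays interleukin-12 in T and killer cells, measured 2.71 and 3.34 against -2.58, -2.59 and -2.04 (5.43 ± 0.39, adjusted p = 6.87e-08), and Jak3, the kinase of the common gamma chain, differed by 2.20 ± 0.28 (adjusted p = 1.86e-05). Jak2 and the kinase Pim1 were the others in the cells (1.70 ± 0.40 and 2.13 ± 0.84, adjusted p = 0.00253 and 0.0417). In liver, Socs2, which restrains growth hormone signals, measured 4.46, 4.74 and 4.80 against 1.14 and -0.27 (-4.23 ± 0.77, adjusted p = 0.000351). Cebpd and Cebpb, transcription factors of the acute phase, differed by -3.84 ± 0.76 and -1.88 ± 0.33 (adjusted p = 0.000712 and 0.000292), and Bcl6 by -0.96 ± 0.36 (adjusted p = 0.0339). Bcl6 lost its call without No. 983, liver 5 or liver 6, and Pim1 without No. 983, No. 985, liver 4 or liver 5.

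Immediate early genes, which rise within minutes of a stimulus, were higher in the cells in 9 of 21 cases and in liver in 2 (median 1.39). These shares were 42.9% and 9.52%, against 29.3% and 31.7% of all genes. Egr3 and Nr4a3, both tied to antigen receptor signals, were 6.23 ± 0.57 log2 units and at least 27.2-fold higher (adjusted p = 6.61e-07 and 2.95e-07), and 2 of the 3 livers were well above background for Egr3. The growth regulator Myc measured 6.53 and 6.06 against 2.24, 2.88 and 2.44 (3.78 ± 0.53, adjusted p = 3.74e-05). Fos was not called, at 2.52 and 2.98 against 2.17, 1.68 and 1.37 (1.01 ± 0.75, adjusted p = 0.267, and 0.0431 with the 10 arrays at 5 h). Jun and Klf2 were higher in liver (-0.81 ± 0.24 and -1.23 ± 0.23, adjusted p = 0.0108 and 0.000455). Jun lost its call without No. 985, and the mean of both Klf2 probes had the opposite sign (1.53, adjusted p = 0.000839).

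Cell death genes were higher in the cells in 10 of 25 cases and in liver in 6 (median 0.67). Bcl2, which protects lymphocytes, measured 3.70 and 3.17 against -1.50, -1.89 and -1.50 (5.06 ± 0.27, adjusted p = 4.01e-09), and Pmaip1, a p53-induced killer protein, 3.50 and 3.28 against -0.24, -1.31 and -0.78 (4.17 ± 0.33, adjusted p = 1.86e-07). Casp1, the protease that matures interleukin-1 beta, differed by 2.48 ± 0.22 (adjusted p = 4.71e-07). Of single necroptosis genes, the kinase Ripk3 was higher in the cells, at 2.10 and 2.40 against 0.13, 0.04 and 0.11 (2.15 ± 0.21, adjusted p = 1.21e-06). Its substrate Mlkl was higher in liver, at 3.18, 2.85 and 2.77 against 0.54 and -1.39 (-3.36 ± 0.52, adjusted p = 9.62e-05).

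Genes of the cell cycle were higher in the cells in 16 of 20 cases (median 2.47, 2.19 at the bounds). The replication helicase Mcm2 measured 2.01 and 1.73 against -2.42, -2.25 and -2.61 (4.30 ± 0.28, adjusted p = 3.05e-08), and the proliferation antigen Mki67 3.02 and 2.29 against -0.08, 0.65 and -0.15 (2.51 ± 0.42, adjusted p = 0.000189). Ccnd1, the cyclin of regenerating hepatocytes, was higher in liver, at 3.29, 2.12 and 1.99 against -0.17 and -0.15 (-2.63 ± 0.36, adjusted p = 3.11e-05), while the lymphoid Ccnd2 and Ccnd3 were higher in the cells (4.49 ± 0.48 and 1.73 ± 0.21, adjusted p = 3.00e-06 and 1.24e-05). Tyms, the second member higher in liver (-0.63 ± 0.24, adjusted p = 0.0386), lost its call without No. 985, liver 5 or liver 6.

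Of 16 adhesion genes, 9 were higher in the cells and 4 in liver, with a median of 1.44. Integrins of leukocytes were higher in the cells: Itga4 measured 3.34 and 3.72 against -1.56, -1.20 and -1.30 (4.88 ± 0.27, adjusted p = 6.42e-09), and Itgb7 differed by 5.16 ± 0.34 (adjusted p = 3.28e-08). Endothelial molecules that bind leukocytes were among those higher in liver: Vcam1 measured 5.25, 5.63 and 5.61 against 2.17 and 1.62 (-3.60 ± 1.09, adjusted p = 0.0115), and Sele, E-selectin, which neither cell sample measured, was at least 26.7-fold higher (adjusted p = 0.0162). Without No. 985, Vcam1 and Sele lost their calls (adjusted p = 0.0698 and 0.127). The junction protein Jam2 (-2.43 ± 0.50, adjusted p = 0.00086) and Madcam1 (-0.96 ± 0.25, adjusted p = 0.0044, lost without No. 983) were the others, and Madcam1 was well above background in 1 of the 2 cell samples.

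Heat shock and unfolded protein genes were higher in liver in 8 of 21 cases and in the cells in 3 (median -0.86). These shares were 38.1% and 14.3%, against 31.7% and 29.3% of all genes. The chaperone Hspb1 measured 2.37, 2.69 and 1.30 against -2.36 and -1.48 (-4.04 ± 0.47, adjusted p = 6.58e-06), and Xbp1, a transcription factor of secretory cells, 4.96, 5.44 and 4.97 against 1.62 and 2.25 (-3.19 ± 0.37, adjusted p = 7.55e-06). The 3 in the cells, Hsp90ab1, Dnajb1 and Atf4, differed by 1.02 ± 0.31, 0.90 ± 0.25 and 0.78 ± 0.24 (adjusted p = 0.0114, 0.00656 and 0.0119), and each lost its call without No. 983. Without No. 985, 5 members were called higher in the cells. All 20 oxidative phosphorylation genes were higher in liver (median -1.58). Sdha, a subunit of succinate dehydrogenase, measured 3.54, 3.67 and 3.63 against 0.31 and 0.10 (-3.41 ± 0.19, adjusted p = 7.43e-09) on its brightest probe, and its other probes gave -2.37 and -0.34. Of 22 ribosomal protein genes, 19 were higher in the cells and 0 in liver (median 1.12), and Rps19 measured 8.09 and 8.16 against 6.20, 6.00 and 5.80 (2.12 ± 0.17, adjusted p = 2.53e-07).

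The 2 samples of inflammatory cells differed by a median of 0.51 log2 units per gene, without sign, and by over 1 for 3712 genes: No. 985 was higher in 2339 and No. 983 in 1373. The range of the 3 livers had a median of 0.45. With 1 sample on each side there is no test of this difference. The Kupffer, hepatocyte plasma protein, hepatocyte enzyme, endothelial and class II lists had higher values in No. 985, with median differences of 1.14, 1.28, 1.64, 0.91 and 0.88. The median of the hepatocyte transcription factors was -0.23, with 5 of 15 members brighter in No. 985. Of these 15 genes, 8 were well above background in neither cell sample, so this median rests largely on signals near background. Interferon, heat shock and cell cycle lists were higher in No. 983, with median differences of -1.07 (heat shock), -0.99 (type I interferon), -0.54 (interferon-gamma) and -0.43 (cell cycle). The T cell list differed by 0.01. Of single listed genes, Gpr182, an endothelial receptor, measured -3.38 in No. 983 and 0.35 in No. 985, and the macrophage chemokine Ccl24 measured 6.43 and 2.16. In both genes the livers, at -1.18 to -0.52 and 5.34 to 5.62, lay between the cell samples. Neither gene was called between the tissues, and each was called higher in liver when the brighter cell sample was left out (Ccl24 without No. 983, adjusted p = 0.00762, and Gpr182 without No. 985, adjusted p = 0.00448).

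**Figure D4:**
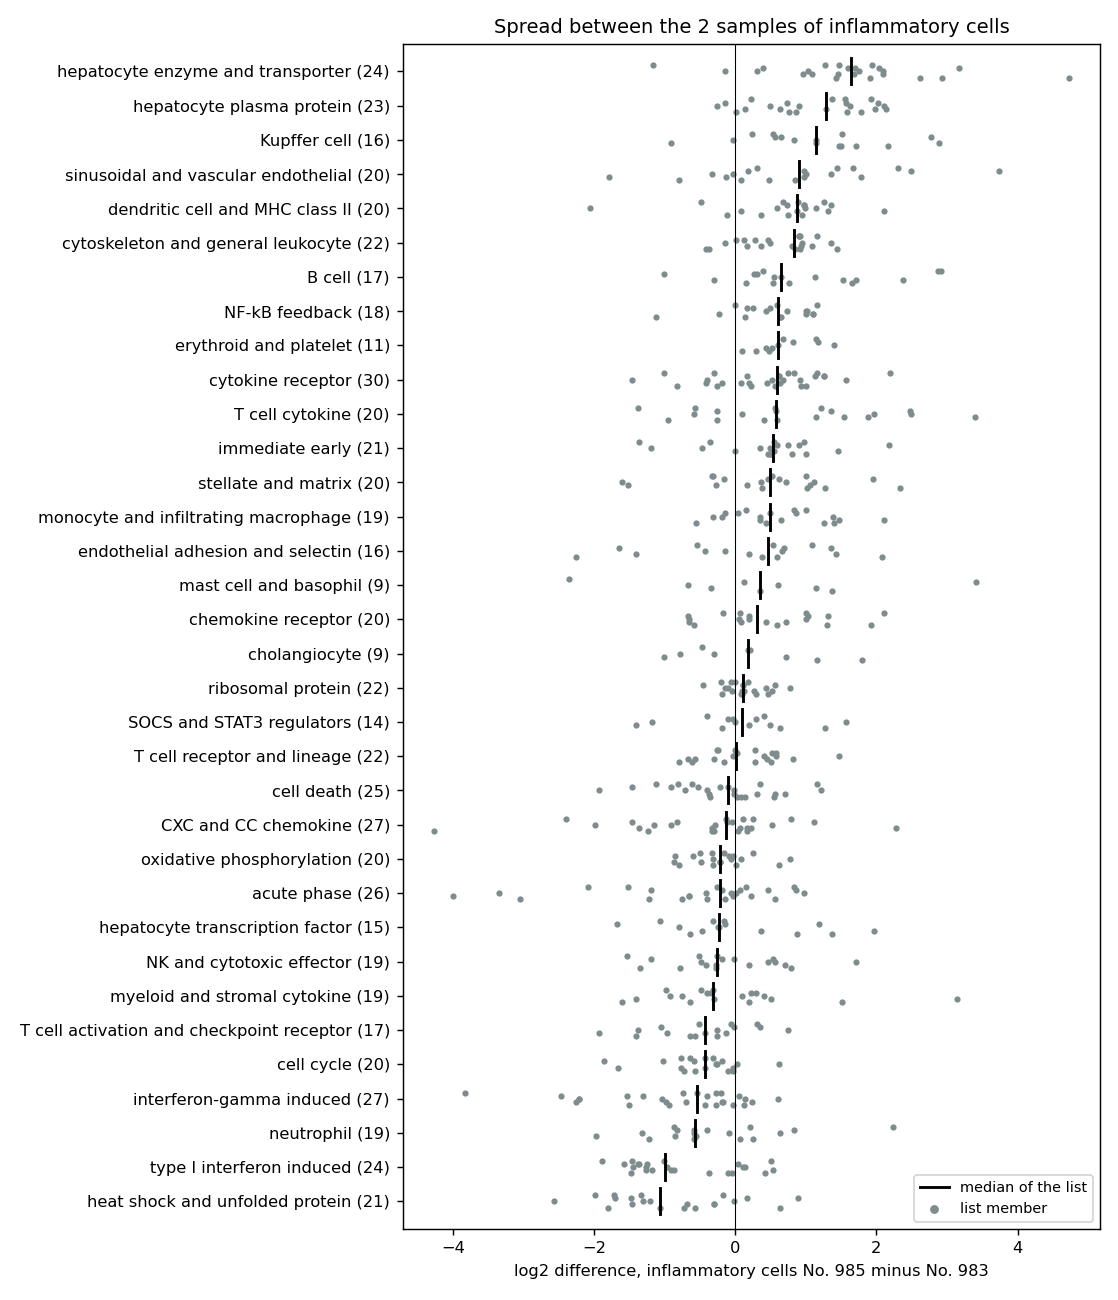
Log2 difference of inflammatory cells No. 985 minus No. 983 (x axis) for the tested members of each gene list (rows), each dot 1 gene and each bar the list's median. The hepatocyte plasma protein, hepatocyte enzyme and Kupffer medians lie to the right of 0, heat shock and type I interferon lists to the left, and the T cell list is centred at 0.01.

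The same tissue comparison in mice given stem cells at 3 h shares no array with the one above, but shares slides and the estimate of spread with it. There, 10369 genes (63.7%) differed, 4604 (28.3%) higher in the cells and 5765 (35.4%) higher in liver. In 8341 genes both comparisons made a call in the same direction, in 81 in opposite directions, and 1491 were called with concanavalin A alone only. The difference between both tissue differences was tested by an interaction term: 363 genes (2.23%) were called, of which 283 had a smaller value (cells minus liver) with stem cells and 80 a larger one. That count was unstable. It was 0 with normexp background correction, where 1476 genes had an unadjusted p under 0.05 in limma, 121 without No. 983 and 2372 without No. 985, and 128 to 173 without 1 of the livers.

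List medians of both comparisons are given side by side. The B cell median was 6.23 alone and 6.31 with stem cells, the NK median 5.73 and 5.33, the hepatocyte plasma protein median -6.02 and -5.46, and the stellate median -4.05 and -4.09. The T cell cytokine median was 4.44 alone and 1.85 with stem cells, with 17 and 9 of 20 members called higher in the cells, and the activation list median 4.35 and 2.27, with 16 and 12 of 17. The chemokine median was -1.94 and -2.78 and the interferon-gamma median -0.42 and -1.72. For the Kupffer list it was -1.17 and -0.09. Differences between these medians were not tested, and the interaction was called for 3 cytokine genes of 20, Il3, Il17a and Il21.

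Among single genes with a called interaction, Il3 measured 0.39 on average in the cells without stem cells, and with stem cells it was not well above background on any of the 5 arrays of either tissue (interaction -7.56, -5.29 with signals below background at their bound, adjusted p = 2.39e-05). For Il2ra the tissue difference was 4.73 alone and -0.07 with stem cells (interaction -4.81, adjusted p = 0.0341). Il21 and Il17a were well above background in 1 of the 2 cell samples and no liver of the stem cell mice, with interactions of -3.66 and -3.24 (-3.64 and -3.25 at the bounds, adjusted p = 0.023 and 0.0311). The tissue difference of Ifng was 5.17 alone and 1.69 with stem cells, and this interaction was not called (-3.48, adjusted p = 0.144). Ccr1 was well above background in neither tissue of the stem cell mice, with an interaction of -3.23 (-1.70 at the bounds, adjusted p = 0.0113). Of 13 listed genes with a called interaction, 3 were still called without No. 983, 13 without No. 985, 5, 6 and 3 without liver 4, 5 and 6, and 0 with normexp background correction. Il3 and Ccr1 were called in each of these settings that leave out 1 array. The tissue differences alone and with stem cells were 5.80 and 5.06 for Fasl, 4.92 and 4.23 for Osm and 5.36 and 5.50 for Ccl5, none with a called interaction.

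**Figure D5:**
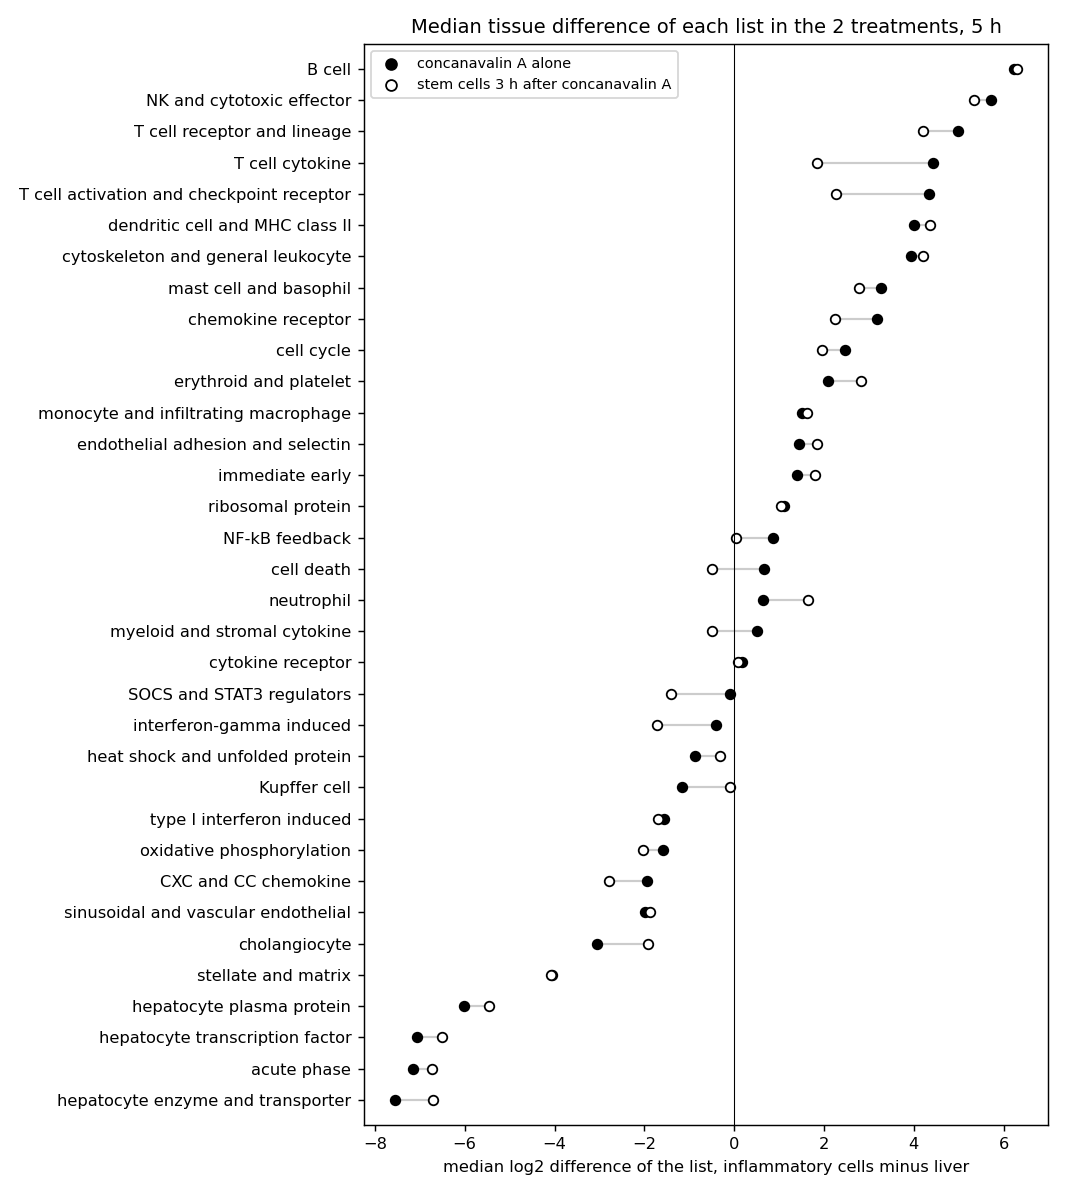
Median log2 difference of inflammatory cells minus liver (x axis) of each gene list (rows), with filled symbols for concanavalin A alone and open symbols for concanavalin A with stem cells at 3 h. The symbols of the B cell list lie at 6.23 and 6.31, whereas those of the T cell cytokine list lie at 4.44 and 1.85.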

How the data were processed

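RNA of each sample was labelled with Cy3 and hybridised to 1-colour Agilent mouse arrays. Per the submitters' processing notes and the file headers, the authors extracted the deposited intensity of each spot (the processed signal) with Agilent Feature Extraction 10.5.1.1, with spatial and multiplicative detrending, surrogates for dim spots and no local background subtraction. The series' value table held the same linear values on all 16 arrays, with column medians of 24.0 to 42.3, neither centred nor on a log scale.

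Control spots and flagged spots (55 to 100 per array) were left out, spots of a probe were averaged, and log2 intensity minus the array's 75th percentile of it was used. On the 5 arrays 54.8% to 62.1% of spots were well above background, and 0 were saturated. Their small number limits the precision. A probe was kept if at least 2 of the 16 arrays measured it well above background, and a gene was represented by its brightest probe. Of 41174 probes, 23374 were named through accessions, 6733 through symbols and 2919 through older symbols of the RefSeq gene table, 1758 kept the name of the array design and 6390 had none. limma 3.58.1 in R 4.3.3 was fitted to 6 group means over all 16 arrays (10 residual degrees of freedom), with Benjamini-Hochberg adjustment over all genes. Standard errors therefore include the spread of the other groups. The interaction compared the tissue difference with and without stem cells.

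Genes named were the 12 with the largest difference in each direction, up to 4 members of each list with the smallest p in each direction with the exceptions to a list's direction, a panel of known genes, the largest differences between both cell samples, and the genes of the ligand and receptor pairs. Members and lists were chosen with earlier results of these data known. Some members are not reported here by name, but list counts and medians include them. Promoter windows came from the RefSeq promoter table. Alternatives were other samples in the fit, background corrections, normalizations, filters and probe summaries, the slide as a block, array weights, an intensity trend and leaving out each array. Their effect on list counts was added after the data were seen. The fit was tested on simulated data.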

Additional observations from a re-analysis of the deposited data

Results flagged for a closer look

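In 13 listed genes the difference of cells minus liver changed with stem cells, by the interaction term of the limma fit (adjusted over all genes, n = 2 and 3 in each treatment). Its value is the difference with stem cells minus the difference with concanavalin A alone. Over all 16267 genes tested, 363 (2.23%) were called. By list, the calls were 3 of 20 T cell cytokines, 2 of 17 activation genes and 2 of 20 cell cycle genes. Each other list held 1 or 0. The 13 were not tested against the share of all genes and are not read as exceeding it. The interaction value was negative in 11 of the 13 and in 283 of the 363. Among T cell cytokines it was -7.56 for Il3, -3.66 for Il21 and -3.24 for Il17a, and among activation genes -4.81 for Il2ra and -2.10 for Icos, the co-stimulatory receptor. Il6st, which encodes the shared receptor chain gp130, gave -2.04 and the chemokine receptor Ccr1 -3.23. Il3 and Ccr1 were not well above background in the stem cell mice, and their interactions are smaller in size at the bounds given above. Irgm2, an interferon-induced GTPase, gave -3.50, and Tnip3, a feedback gene of NF-kB, -4.45. The cell cycle genes Ccnd2 and Pcna, the replication clamp, gave -2.83 and -1.06. It was positive for Nr1h3 (1.71) and for the bile duct keratin Krt7 (2.53), each of which was higher in liver in both comparisons. With the mean of both Krt7 probes its interaction was not called (1.06, adjusted p = 0.222), and the tissue difference with concanavalin A alone was -4.18 on the brighter probe and -1.51 on the other. With normexp background correction 0 of the 13 were called.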

How the results depend on the processing

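No paired analysis was possible because the mouse and sample numbers of the groups share no number. Counts of genes that differed between cells and liver stayed within 1.5 times the reported ones under every alternative run (7186 to 10049 where 9913 were reported, and 9062 to 9422 without any 1 array). With the slide as a random block the count was 9971, which cannot separate slide from tissue, since cells and livers lay on different slides. The share of calls that were higher in the cells was 48.0%, and 45.9% to 53.6% under other settings. The median of all genes moved to 0.14 with the 75th percentile over spots above background on all arrays and to -0.31 with no filter on dim probes. The count of called interactions, 363 as reported, was 143 with the 10 arrays at 5 h, 0 with normexp background correction, 573 with quantile normalization, 166 with array medians, 214 with no filter, 639 with genes above background on all 5 arrays, 240 with the mean of probes, 140 with array weights and 121 to 2372 without 1 array. The cause was not tested. Of 195 named genes that were called, 25 lost the call when 1 array was left out and 0 turned sign there. In other settings 30 lost it in at least 1, and Klf2 (1.53) turned sign with the mean of probes. Calls lost with normexp were those of Ackr3, Bcl6, Ccr1, Csf3, Cx3cr1, Cyp7a1, Elane, Epcam, Hgf, Il17f, Il21, Il22, Jun, Madcam1, Tnip3 and Tyms. A dimmer probe gave a smaller difference for genes such as Ccr2 (3.17), Cx3cr1 (0.68), Dcn (-1.73), Egr3 (2.10), Il7r (3.40), Jak3 (0.65), Pax5 (1.84) and Sox9 (-2.05). Smaller values also came from a dimmer probe of Ighm (3.00), Itga4 (2.00), Hnf4a (-4.69) and Onecut1 (-5.52). Other dimmer probes gave 6.75 for Ighm, -7.56 for Hnf4a and 4.49 to 5.81 for Itga4. Of uncalled genes, Irf1 was -0.45 with the mean of probes and -0.074 to 0.19 without 1 array. Without 1 array Ccl24 ranged from -3.30 to 0.96, Gpr182 from -2.54 to 1.196, Il6ra from -1.16 to 0.094 and Tnfrsf10b from -0.79 to 0.67, and Tnfrsf10b was 0.125 with the 75th percentile over detected spots. List medians that turned sign with genes above background on all 5 arrays were -0.038 for mast cells, 0.77 for cholangiocytes and -0.058 for cytokine receptors. The cytokine receptor median was also -0.14 with normexp and -0.16 to 0.34 without 1 array. The median of the regulators of STAT signalling was 0.73 with quantile normalization, 0.094 with the 75th percentile over detected spots and -0.21 to 0.19 without 1 array. With genes above background on all 5 arrays, which leaves out genes measured in 1 tissue only, fewer members were called: 11 killer cell genes, 0 mast cell genes and 10 T cell cytokines were higher in the cells, and 3 hepatocyte transcription factors and 11 stellate genes in liver.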
